A study of Mus musculus with 20 samples.

Results

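The genes described here set the balance between making and burning glucose in the liver. They are PCK1, G6PC, FBP1, TAT, PPARGC1A, GCKR, PKLR, PFKFB1 and SLC2A2, found by their symbols, ignoring case, in a human and in a mouse expression table. All 9 were listed among the 60607 genes of the human table and the 55335 of the mouse table. RNA was measured in 20 livers after knockdown (KD) of HuR, the RNA-binding protein encoded by ELAVL1 (Elavl1 in mouse), or after a control virus named LacZ. The WT mice were male C57BL/6 mice bought at 8 weeks of age. The humanized mice were TK-NOG mice, highly immunodeficient animals with a herpes simplex virus thymidine kinase transgene under the mouse albumin promoter. They received ganciclovir at 25 mg/kg when 8 to 9 weeks old, which kills the cells that carry the kinase, and then human primary hepatocytes. They were tested for human albumin in serum 8 to 12 weeks after transplantation, and only mice above 0.5 mg/ml were used. Each of these livers thus held human hepatocytes beside host cells, and the values below are for the human genes alone. All mice, controls included, were given 2000000000 pfu of adenovirus intravenously, with an shRNA against mouse HuR in WT mice and one against human HuR in humanized mice. Livers were taken 7 days later after a fast of 4 h. There were 4 HuR KD and 4 LacZ humanized mice, and 6 HuR KD and 6 LacZ WT mice.

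Gluconeogenesis builds glucose from lactate, glycerol and amino acids, and glycolysis runs the other way. In the fasted liver glucagon and glucocorticoids raise the genes that are specific to gluconeogenesis, and insulin lowers them after a meal. PCK1 is phosphoenolpyruvate carboxykinase of the cytosol, FBP1 is fructose bisphosphatase, and G6PC frees glucose from its phosphate in the last step. TAT, tyrosine aminotransferase, breaks down tyrosine and is a classical target of glucocorticoids. PPARGC1A is a transcriptional coactivator of the fasting response. On the side of glucose use, GCKR holds glucokinase in the nucleus, PKLR is the pyruvate kinase of the liver, PFKFB1 makes and degrades a fructose bisphosphate that activates phosphofructokinase, and SLC2A2 is the glucose transporter GLUT2.

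The promoters of the mouse gluconeogenic genes are shown because Pck1, G6pc and Fbp1 each had a higher mean in the WT mouse livers with HuR KD. The sequences are from RefSeq, build GRCm38.p6, and cover 250 bases before to 50 bases after the start of transcription. Pck1 lies on the plus strand at chr2:173152823-173153122, G6pc on the plus strand at chr11:101367466-101367765 and Fbp1 on the minus strand at chr13:62888233-62888532. Capitals mark matches to any of the searched motifs, here CGTCA, which is TGACG read on the other strand and the core of the site bound by CREB.
Pck1: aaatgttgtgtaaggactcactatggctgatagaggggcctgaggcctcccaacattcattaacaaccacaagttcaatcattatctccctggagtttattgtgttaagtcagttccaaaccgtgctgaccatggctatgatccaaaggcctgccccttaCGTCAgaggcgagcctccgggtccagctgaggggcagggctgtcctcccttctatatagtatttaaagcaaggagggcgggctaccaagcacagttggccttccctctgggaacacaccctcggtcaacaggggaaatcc
G6pc: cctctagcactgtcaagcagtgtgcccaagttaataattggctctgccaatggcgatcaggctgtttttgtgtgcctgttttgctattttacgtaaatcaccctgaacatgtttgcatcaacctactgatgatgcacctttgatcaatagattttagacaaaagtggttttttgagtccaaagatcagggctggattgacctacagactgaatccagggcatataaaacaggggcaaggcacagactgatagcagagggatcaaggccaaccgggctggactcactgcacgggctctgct
Fbp1: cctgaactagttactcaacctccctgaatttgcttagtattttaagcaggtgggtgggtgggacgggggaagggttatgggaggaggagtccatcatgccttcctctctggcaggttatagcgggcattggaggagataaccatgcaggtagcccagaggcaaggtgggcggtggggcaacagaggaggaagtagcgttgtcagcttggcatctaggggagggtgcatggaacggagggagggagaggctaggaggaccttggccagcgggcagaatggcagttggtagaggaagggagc

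All 9 genes had an entry in the promoter table, with 13 windows in all. The motifs searched on both strands were TGACGTCA and its core TGACG, for CREB, CACGTG, the E-box, TGTTTAC, for forkhead factors, and TGTTCT, for the glucocorticoid receptor. TGACG was found in Pck1, starting 90 bases before the start, and in Ppargc1a, starting 49 bases before it, and 20.8% of all 32851 promoters of this length held it. TGTTCT was found at 2 places in Gckr and in 19% of all promoters. The full TGACGTCA, CACGTG and TGTTTAC were in none of the 13 windows, and in 1.79%, 7.15% and 3.65% of all promoters. A match or its absence concerns these letters in these windows only.

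The depth of the libraries, recovered from the steps of the deposited values, was 2670469 to 20302454 reads of human genes in the humanized livers. In the WT mouse livers it was 1423985 to 44668272 reads. Reads of mouse genes are not in the humanized numbers, so the share of human cells and the depth of sequencing cannot be told apart there. HuR was lower in the HuR KD livers of both sets, with no overlap between groups. ELAVL1 had 3.46 ± 0.76 TPM (transcripts per 1000000; SD, n = 4) in HuR KD and 5.67 ± 0.62 (SD, n = 4) in LacZ humanized mouse livers (log2 fold change -0.59 ± 0.17 SE, adjusted p = 0.214), and Elavl1 had 4.91 ± 0.69 and 9.50 ± 0.79 TPM (SD, n = 6 each) in WT mouse livers (log2 fold change -0.83 ± 0.09 SE, adjusted p = 0.00105). The hepatocyte markers of the humanized mouse livers added up to 42448 to 93045 TPM, while those of Kupffer cells, T and NK cells and B cells added up to at most 1.24 TPM among human genes. Of 7 Kupffer cell and macrophage markers, 4 were called lower in WT mouse livers with HuR KD, with sums of 292 to 507 TPM against 414 to 560 TPM in LacZ, where 6.94% of all genes were called lower. In the other marker lists of the WT mouse livers, 1 hepatocyte, 1 stellate cell and 1 T and NK cell marker were called lower, and 1 endothelial and 1 red blood cell marker higher. In humanized mouse livers 2 of 4 tested cholangiocyte markers were called lower, with sums of 5.26 to 29.4 TPM against 11.5 to 44.4 TPM, where 7.87% of all genes were, and 1 hepatocyte marker was called higher. The part of these cells in the results below was not tested. In whole livers, fewer cells of a type and less RNA per cell cannot be told apart.

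Among the humanized mouse livers, HuR KD 4 and LacZ 2 stood apart from the rest. They were the 2 deepest libraries by reads of human genes, with 20302454 and 19891555 reads against 2670469 to 8342241 in the other 6. Mitochondrially encoded genes took 51.8% and 51.7% of their TPM against 29.0% to 38.5% in the others. PCK1, G6PC, FBP1, TAT, PPARGC1A and PFKFB1, 6 of the 8 measured genes, were higher in both of these libraries than in all 6 others, which was so for 7.14% of the 12738 human genes tested. Depth, mitochondrial share and these levels go together in the same libraries and cannot be told apart. The fold changes of the 8 measured genes in these livers are therefore given with and without them.

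PPARGC1A showed the widest gap of the 8 measured genes. It had 2.01, 1.43, 1.55 and 25.7 TPM in the 4 HuR KD livers and 2.27, 33.0, 3.51 and 2.76 TPM in the 4 LacZ livers. The deepest library of each group was 15.5 times the mean of the other HuR KD livers and 11.6 times that of the other LacZ livers. The values rested on 32 to 141 reads in the 6 other libraries and on 3099 and 3938 reads in the deepest. The 3 remaining HuR KD livers were all below the 3 remaining LacZ livers, with 1.66 ± 0.31 against 2.85 ± 0.62 TPM (SD, n = 3 each). Over all livers the log2 fold change was -0.48 ± 0.93 (SE, limma p of 0.618, exact permutation p = 0.457). It was -0.53 ± 0.24 (SE, limma p of 0.0575, adjusted p = 0.340) without the 2 deepest, and -0.48 ± 0.15 (SE, limma p of 0.0122, adjusted p = 0.190) with the deepest libraries as a term of the fit, where 15.1% of all genes passed an unadjusted p of 0.05. It turned positive, to 0.31, when LacZ 2 alone was left out.

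TAT was likewise highest in the deepest library of each group. The HuR KD livers had 80.7, 90.8, 86.5 and 531 TPM and the LacZ livers 76.2, 712, 149 and 152 TPM. The deepest libraries were 6.18 and 5.66 times the mean of the other livers of their group. The HuR KD and LacZ levels differed by a log2 fold change of -0.46 ± 0.77 (SE, limma p of 0.559, exact permutation p = 0.543). The value was -0.48 ± 0.26 (SE, limma p of 0.110) without the 2 deepest, and 0.18 without LacZ 2 alone. LacZ 1 was below all the HuR KD livers, so the groups overlapped in either case.

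G6PC was measured at 192, 248, 237 and 892 TPM in HuR KD and at 107, 585, 219 and 211 TPM in LacZ humanized mouse livers. The deepest libraries were 3.95 and 3.27 times the mean of the others of their group. The group means were 392 ± 334 and 280.3 ± 209 TPM (SD, n = 4 each), and 226 ± 29.5 and 179 ± 62.3 TPM (SD, n = 3 each) without the 2 deepest. A log2 fold change of 0.45 ± 0.58 (SE, limma p of 0.458, exact permutation p = 0.543) became 0.40 ± 0.28 (SE, limma p of 0.194) without both, and -0.05 without HuR KD 4 alone.

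PCK1 had 90.6, 86.2, 60.6 and 149 TPM in HuR KD and 77.4, 187, 131 and 118 TPM in LacZ humanized mouse livers. HuR KD was below LacZ within the deepest libraries, and within the others its mean was 72.6% of the LacZ mean. The log2 fold change was -0.41 ± 0.32 (SE, limma p of 0.222), with a 95% interval from -1.12 to 0.30, and the two-sided exact permutation test over the 70 groupings of these livers gave p = 0.286. Without the 2 deepest it was -0.44 ± 0.24 (SE, limma p of 0.106). With the deepest libraries as a term it was -0.41 ± 0.20 (SE, limma p of 0.0683, adjusted p = 0.374).

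FBP1 had 275, 226, 258 and 472 TPM in HuR KD and 183, 401, 228 and 219 TPM in LacZ humanized mouse livers. Without the deepest library, the lowest HuR KD liver was just under the highest LacZ liver. Its log2 fold change was 0.26 ± 0.29 (SE, limma p of 0.393, exact permutation p = 0.486) over all livers, 0.27 ± 0.15 (SE, limma p of 0.105) without the 2 deepest, and 0.26 ± 0.12 (SE, limma p of 0.0557, adjusted p = 0.344) with the deepest libraries as a term.

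The genes of glucose use spread less than PPARGC1A, TAT and G6PC. GCKR had 28.5, 22.6, 29.1 and 24.5 TPM in HuR KD and 27.8, 16.7, 45.9 and 44.8 TPM in LacZ livers, where the deepest library was the lowest of all. Its log2 fold change was -0.26 ± 0.29 (SE, adjusted p = 0.798, exact permutation p = 0.429). It became -0.52 ± 0.22 (SE, limma p of 0.0487, adjusted p = 0.316) without the 2 deepest libraries, where 15.7% of all genes passed an unadjusted p of 0.05, and -0.55 (limma p of 0.0250) without LacZ 2 alone. SLC2A2 had 270.1, 243, 282 and 304 TPM in HuR KD and 298, 267, 403 and 299.97 TPM in LacZ livers, a log2 fold change of -0.19 ± 0.16 (SE, limma p of 0.247, exact permutation p = 0.286). Without the 2 deepest libraries its log2 fold change was -0.32 ± 0.16 (SE, limma p of 0.0826), and the 3 remaining HuR KD livers, at 243 to 282 TPM, were all below the 3 remaining LacZ livers, at 298 to 403 TPM. PFKFB1 ranged from 12.3 to 29.5 TPM in HuR KD and from 14.9 to 27.9 TPM in LacZ livers, with a log2 fold change of 0.04 ± 0.27 (SE, limma p of 0.884, exact permutation p = 0.886) and a 95% interval from -0.56 to 0.64, and it was 0.03 ± 0.24 (SE) without the 2 deepest.

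PKLR was listed at 0 in 7 of the 8 humanized mouse livers and at 0.0812 TPM in LacZ 1, and it was not tested. This cannot be read as a gene that is not expressed. Of 3468 symbols shared by both tables with a mean above 20 TPM in the WT mouse livers, 165 (4.76%) had a mean under 0.1 TPM in the human table. Some of the 165 may be genes of cell types that came from the host, such as Kupffer cells, which the count did not set apart. EEF1G, a translation elongation factor used by every cell, was listed at 0 in all 8 livers and had 95.7 TPM in mouse, and LDHA reached at most 0.0802 TPM against 591 TPM in mouse.

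**Figure D1:**
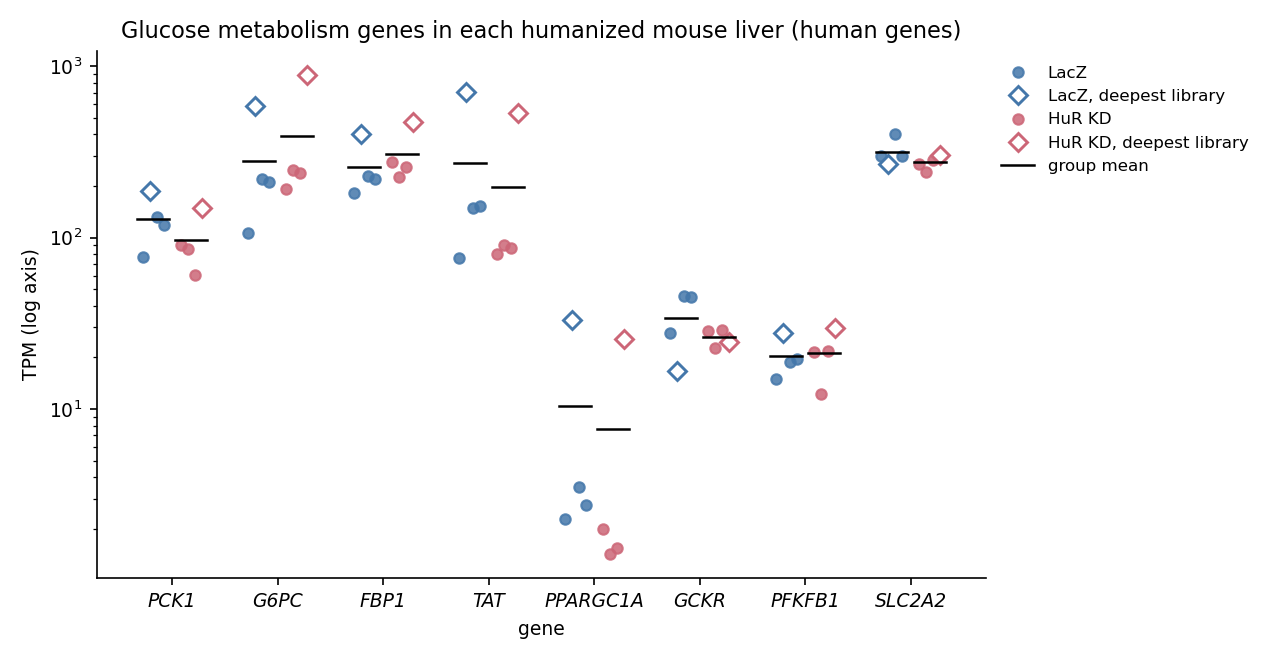
TPM on a log axis of 8 genes in each of the 8 humanized mouse livers, LacZ in blue and HuR KD in red. Open diamonds are the deepest library of each group, filled points the other livers and bars the group means, and PKLR is not drawn because it was listed at 0 in 7 livers. The diamonds of PPARGC1A, at 25.7 and 33.0 TPM, lie far above the other points, which do not exceed 3.51 TPM.

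In all, 0 of the 8 measured genes passed an unadjusted p of 0.05 in the limma fit of the humanized mouse livers, 0 passed after adjustment, and voom on the recovered reads also gave 0 at an unadjusted p of 0.05, which 10.7% of all genes passed there. In the same limma fit 11.5% of 12738 human genes passed the unadjusted and 0.212% the adjusted threshold. The groups overlapped for each of the 8 genes, while 7.16% of all genes had groups that did not. The 95% intervals were -2.58 to 1.62 for PPARGC1A and -2.19 to 1.26 for TAT over all livers, and -0.83 to -0.13 and -0.95 to 0.03 with the deepest libraries as a term.

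In the WT mouse livers the gluconeogenic enzymes Pck1, G6pc and Fbp1 and the pyruvate kinase Pklr were higher with HuR KD. G6pc rose most, to 181% of LacZ, and Fbp1, Pck1 and Pklr rose to 129%, 123% and 124%. These 4 of 9 genes passed an unadjusted p of 0.05 in the limma fit, all in the direction of higher levels, where 9.09% of 15090 genes were called higher and 16% were called in either direction. None of the 9 passed after adjustment, which 0.888% of all genes did, and voom also called 4 of 9 at an unadjusted p of 0.05 and 0 after adjustment, where it called 20% and 3.52% of all genes. The groups overlapped for each of the 9 genes, against 2.49% of all genes whose groups did not.

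G6pc (chr11:101367561-101377903, plus strand, gene span in GENCODE M21 on GRCm38) had 459, 628, 573, 648, 740.2 and 246 TPM in the 6 HuR KD livers. The 6 LacZ livers had 243, 242, 299.9, 371, 372 and 291 TPM. Of the HuR KD livers 5 were above every LacZ liver, while HuR KD 6 was among the lowest LacZ values. The means were 549 ± 175 and 303 ± 58.0 TPM (SD, n = 6 each). The log2 fold change was 0.79 ± 0.23 (SE, limma p of 0.00499, adjusted p = 0.120), and the two-sided exact permutation test over all groupings of these livers gave p = 0.0130. Without HuR KD 6 it was 1.01 ± 0.15 (SE, adjusted p = 0.00886), a threshold that 2.45% of all genes then passed. With array weights, which give less weight to livers far from their group, G6pc and Fbp1 passed after adjustment (adjusted p = 0.00295 and 0.0152), as 11.4% of all genes did.

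The 2 shallowest WT libraries were LacZ 2, with 1423985 reads, and HuR KD 6, with 12960373, against at least 29787812 in the others. Without both, the log2 fold changes were 0.95 ± 0.14 for G6pc (SE, adjusted p = 0.00887, a threshold that 5.05% of all genes passed), 0.22 ± 0.08 for Pck1, 0.28 ± 0.08 for Fbp1 and 0.27 ± 0.14 for Pklr. Of these 4, Pklr alone lost its call (limma p of 0.0767).

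Pck1 (chr2:173153048-173159273, plus strand) had 2846, 3042, 3417, 2868, 3221 and 3806 TPM in HuR KD and 2445, 2430.4, 2606, 2817, 2472 and 2890 TPM in LacZ WT mouse livers. HuR KD 6, which was low for G6pc, was the highest for Pck1. Of the HuR KD livers 4 exceeded all LacZ livers. The means were 3200 ± 368 and 2610 ± 199.7 TPM (SD, n = 6 each), with a log2 fold change of 0.29 ± 0.09 (SE, p = 0.00623, adjusted p = 0.134, exact permutation p = 0.00649).

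Fbp1 (chr13:62864753-62888282, minus strand) had 2540.2, 2445, 2117, 2559, 2506 and 3550 TPM in HuR KD and 1867, 2142, 1874, 2106, 2242 and 1912 TPM in LacZ WT mouse livers. HuR KD 3 was the only HuR KD liver within the LacZ range. The means were 2619 ± 484 and 2024 ± 159.7 TPM (SD, n = 6 each), with a log2 fold change of 0.36 ± 0.11 (SE, p = 0.00677, adjusted p = 0.138, exact permutation p = 0.00649).

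Pklr (chr3:89136142-89146784, plus strand) was the weakest of the 4 calls. It had 39.5, 43.0, 25.5, 32.7, 27.6 and 39.9 TPM in HuR KD and 31.6, 31.4, 24.8, 25.5, 25.0 and 29.7 TPM in LacZ livers. HuR KD 3 and 5 lay within the LacZ range and the other 4 above it. Its log2 fold change of 0.28 ± 0.13 (SE, limma p of 0.0494, adjusted p = 0.310) had an exact permutation p of 0.0801. It lost its call when any of 8 livers was left out, and in 4 of the 11 other alternatives.

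Tat and Ppargc1a varied more between livers of a group than between groups. Tat (chr8:109990437-109999803, plus strand) had 1806, 2060.4, 3321, 2429, 3236 and 3451 TPM in HuR KD and 1629, 1702, 2117, 3314, 3595 and 2002 TPM in LacZ livers. LacZ 4 and LacZ 5 were as high as the upper HuR KD livers. Ppargc1a (chr5:51454250-51567726, minus strand) had 14.8, 11.1, 13.9, 12.2, 11.1 and 8.43 TPM in HuR KD and 10.2, 8.75, 7.33, 17.4, 17.7 and 8.54 TPM in LacZ livers. The same LacZ 4 and LacZ 5 were the highest of all 12. HuR KD and LacZ differed by log2 fold changes of 0.21 ± 0.23 (SE, exact permutation p = 0.405) for Tat and 0.09 ± 0.21 (SE, exact permutation p = 0.714) for Ppargc1a, with 95% intervals from -0.30 to 0.72 and from -0.37 to 0.54.

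Of the remaining genes of glucose use, Gckr (chr5:31297443-31327314, plus strand) had 83.0 to 136 TPM with a median of 123 in HuR KD and 77.8 to 116 TPM with a median of 103 in LacZ WT mouse livers. There were 5 HuR KD livers above all LacZ livers, and HuR KD 3 was near the bottom. The difference was a log2 fold change of 0.22 ± 0.12 (SE, limma p of 0.0983, exact permutation p = 0.132), and 0.32 (limma p of 0.00612, adjusted p = 0.114) without HuR KD 3. Pfkfb1 (chrX:150588229-150643878, plus strand) had 37.4 to 41.6 TPM with a median of 39.5 in HuR KD and 30.2 to 41.9 TPM with a median of 37.9 in LacZ, with a log2 fold change of 0.11 ± 0.08 (SE, exact permutation p = 0.193). Slc2a2 (chr3:28697903-28731359, plus strand) had 126 to 164 TPM with a median of 143 in HuR KD and 118 to 169 TPM with a median of 154 in LacZ. Its log2 fold change of -0.03 ± 0.09 (SE, exact permutation p = 0.771) had the 95% interval from -0.22 to 0.17.

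**Figure D2:**
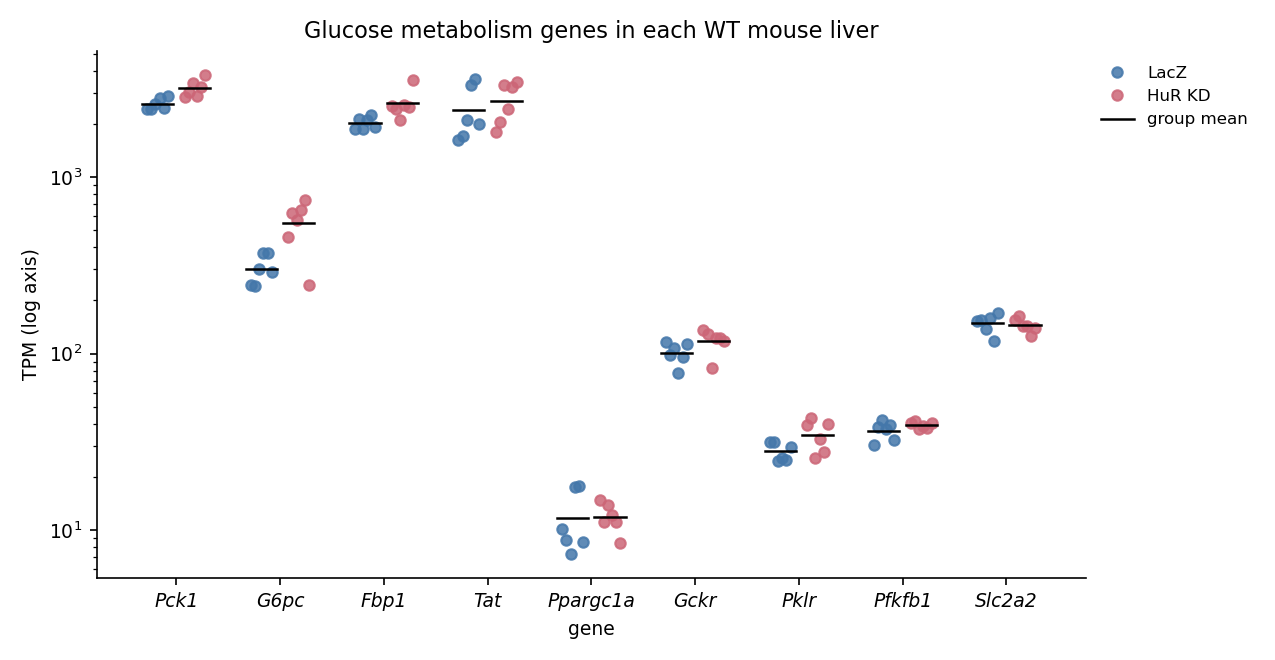
TPM on a log axis of the 9 genes in each of the 12 WT mouse livers, 6 LacZ in blue and 6 HuR KD in red, with bars at the group means. For G6pc 5 of 6 HuR KD points lie above all LacZ points, and HuR KD 6, at 246 TPM, lies among them.

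TPM is per length of transcript, so levels can be put in order within the LacZ livers. Some widely expressed genes, such as EEF1G, were listed at or near 0 in the human table, so this is an order of listed values. In WT LacZ livers it ran from Pck1 (2610 TPM) through Tat (2393), Fbp1 (2024), G6pc (303), Slc2a2 (148), Gckr (101), Pfkfb1 (36.5) and Pklr (28.0) to Ppargc1a (11.7), in mean TPM. The ranges of Pck1 and Tat, of Tat and Fbp1 and of Pfkfb1 and Pklr overlapped. In humanized LacZ livers the order was SLC2A2 (317 TPM), G6PC (280.3), TAT (272), FBP1 (258), PCK1 (128), GCKR (33.8), PFKFB1 (20.3) and PPARGC1A (10.4). There the ranges of all neighbours in the order overlapped except those of PCK1 and GCKR. Without LacZ 2 the order changed to SLC2A2 (334 TPM), FBP1 (210.0), G6PC (179), TAT (126), PCK1 (109), GCKR (39.5), PFKFB1 (17.7) and PPARGC1A (2.85), and the neighbours that overlapped were FBP1 and G6PC, G6PC and TAT, and TAT and PCK1. The tables were made with different indexes, so levels were not compared between them.

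The joint limma fit over 8206 genes with the same symbol in both tables tested whether the effect of HuR KD differed between the sets. PCK1 had the difference with the smallest p, a log2 fold change lower by 0.70 ± 0.29 (SE) in humanized than in WT mouse livers (limma p of 0.0228, adjusted p = 0.169). It was the only one of 8 genes with an unadjusted p under 0.05, where 19.7% of all pairs were called, and 0 of 8 were called after adjustment, where 5.01% of pairs were. The limma p of PCK1 was 0.0768, 0.0647 and 0.0711 with the other scalings of the libraries. It was 0.0785 without humanized HuR KD 3 and 0.0728 without humanized LacZ 2. The adjusted p of PCK1 was 0.0273 without humanized HuR KD 4 and 0.251 without humanized LacZ 2, where that of GCKR was 0.0331. The share of all pairs that passed in these single-liver fits is not given here. Without the 2 deepest humanized libraries, PCK1 differed by -0.73 ± 0.21 (SE, adjusted p = 0.0310) and GCKR by -0.74 ± 0.24 (SE, adjusted p = 0.0452), and 11.8% of all pairs then passed the adjusted threshold. G6PC and FBP1 differed by -0.34 ± 0.57 and -0.10 ± 0.28 (SE, adjusted p = 0.799 and 0.899). Host, shRNA and read length, 75 bases in humanized and 50 bases in WT livers, go with the set and cannot be told apart from species.

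**Figure D3:**
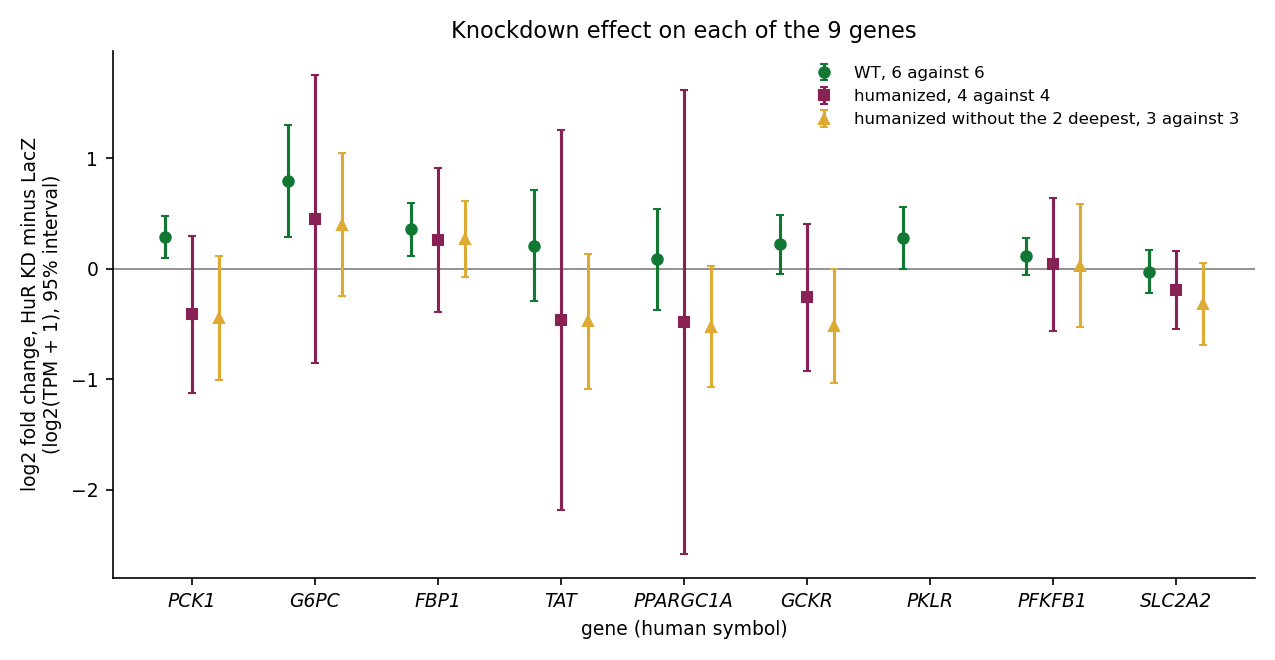
Log2 fold change, HuR KD minus LacZ, on the log2(TPM + 1) scale with 95% intervals for each gene, in 12 WT livers, 8 humanized livers and the 6 humanized livers left without the 2 deepest libraries. Intervals of PPARGC1A and TAT are far narrower without the deepest libraries, and the intervals of Pck1, G6pc, Fbp1 and Pklr in WT livers lie above 0.

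Of the relatives of the 9 genes, G6PC2 and FBP2 were listed at 0 in all humanized mouse livers, and PCK2, the mitochondrial carboxykinase, had means of 1.72 and 1.90 TPM in HuR KD and LacZ WT livers. Of 9 tested paralogs in WT livers 3 passed an unadjusted limma p of 0.05 (33.3%, against 16% of all genes). Ppargc1b and Pprc1, the other coactivators of the Ppargc1a family, rose by log2 fold changes of 0.39 ± 0.11 (SE, exact permutation p = 0.0108) and 0.34 ± 0.13 (SE, exact permutation p = 0.0303). Pfkfb3, an inducible relative of Pfkfb1, was lower (-0.38 ± 0.13 SE, exact permutation p = 0.0238). Of 7 tested in humanized livers 1 passed (14.3%, near the 11.5% of all genes). It was SLC2A9, a urate transporter, which was higher (0.89 ± 0.28 SE, limma p of 0.0116, exact permutation p = 0.0571). PFKFB3 had 7.42 and 5.47 TPM in the 2 deepest libraries against 0.84 to 2.39 in the others. None of these paralogs passed after adjustment.

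The genes around the 9 members of the pathway were counted from lists of enzymes and regulators. In WT livers 24 of 122 tested genes (19.7%, against 16% of all genes) passed an unadjusted p of 0.05, 15 higher and 9 lower, and 1 after adjustment. The median log2 fold change was 0.22 over the 9 genes, 0.06 over the 122 and 0.03 over all genes. The adjusted call was Tkfc, the kinase of dihydroxyacetone and glyceraldehyde in fructose use, with 105 ± 11.2 against 75.7 ± 4.0 TPM (SD, n = 6 each) and an adjusted p of 0.0134. Among enzymes of amino acid use 4 of 15 rose and 1 was lower, with Agxt, the alanine-glyoxylate aminotransferase, at 0.71 ± 0.20 and Gpt2, an alanine aminotransferase, at -0.34 ± 0.11 (log2 fold change, SE). Of 11 partners of gluconeogenesis 2 rose, the malate dehydrogenase Mdh2 by 0.28 ± 0.08 and the aspartate aminotransferase Got2 by 0.19 ± 0.07. Pyruvate carboxylase (Pcx), another enzyme of gluconeogenesis, was among the partners not called. Among 10 enzymes shared with glycolysis Eno1, enolase, rose by 0.32 ± 0.09 and Tpi1, triosephosphate isomerase, was lower (-0.30 ± 0.09), and the hexokinases Hk2 (-0.29 ± 0.11) and Hk3 (-0.34 ± 0.13) were the calls among 7 hexokinases and phosphofructokinases. In the list of fructose and glycerol entry 3 of 8 rose and Sord, sorbitol dehydrogenase, was lower (-0.33 ± 0.13). Of 26 hormone receptors and transcription factors 3 rose and 3 were lower, with Crebbp, a coactivator of CREB, at 0.23 ± 0.08 and Cebpb, a factor that binds promoters of gluconeogenic genes, at -0.53 ± 0.16. No gene passed in the lists of glycogen metabolism, glucose sensing or fasting targets.

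In humanized livers 20 of 110 tested genes of these lists (18.2%, against 11.5% of all genes) passed an unadjusted p of 0.05, 9 higher and 11 lower, and 0 after adjustment. Without the 2 deepest libraries 32 of the listed genes passed, 5 of them after adjustment. In that fit 15.7% of all genes passed the unadjusted threshold, and 172 genes the adjusted one. PGAM1, ENO1, HKDC1, MPC2, CREB3L3, NR3C1, ANGPTL4, KYNU, KHK, GYS2, PGM1, TRIB3 and MLXIPL all stayed called there in the same direction. With each liver left out in turn, MLXIPL lost its call in 6 of 8 fits, KYNU and PGM1 in 4 and GYS2 in 2. Over the 12 other alternatives, PGM1 lost it in 5, MLXIPL in 2, and GYS2 and TRIB3 in 1 each. The median log2 fold change was -0.23 over the 8 genes measured, -0.04 over the 110 and -0.05 over all genes. Of 9 enzymes shared by both pathways 3 were lower, among them PGAM1, phosphoglycerate mutase (-0.86 ± 0.19 SE), and ENO1 (-0.62 ± 0.17 SE). HKDC1, a hexokinase relative, was lower (-1.40 ± 0.29 SE), as was MPC2, a subunit of the mitochondrial pyruvate carrier (-0.46 ± 0.15 SE). CREB3L3, a transcription factor of the fasted liver, rose by 0.84 ± 0.19 and NR3C1, the glucocorticoid receptor, was lower (-0.66 ± 0.17 SE). Among fasting targets ANGPTL4, an inhibitor of lipoprotein lipase, rose by 0.97 ± 0.30. KYNU (-0.69 ± 0.26), an enzyme of tryptophan breakdown, was lower, KHK, the fructose kinase, rose by 0.66 ± 0.21, and GYS2, the glycogen synthase of the liver, by 0.65 ± 0.23, while PGM1, a phosphoglucomutase, was lower (-0.31 ± 0.12). TRIB3, an inhibitor of AKT, was lower (-0.62 ± 0.21), and MLXIPL, the glucose-sensing factor ChREBP, rose by 0.36 ± 0.16.

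**Figure D4:**
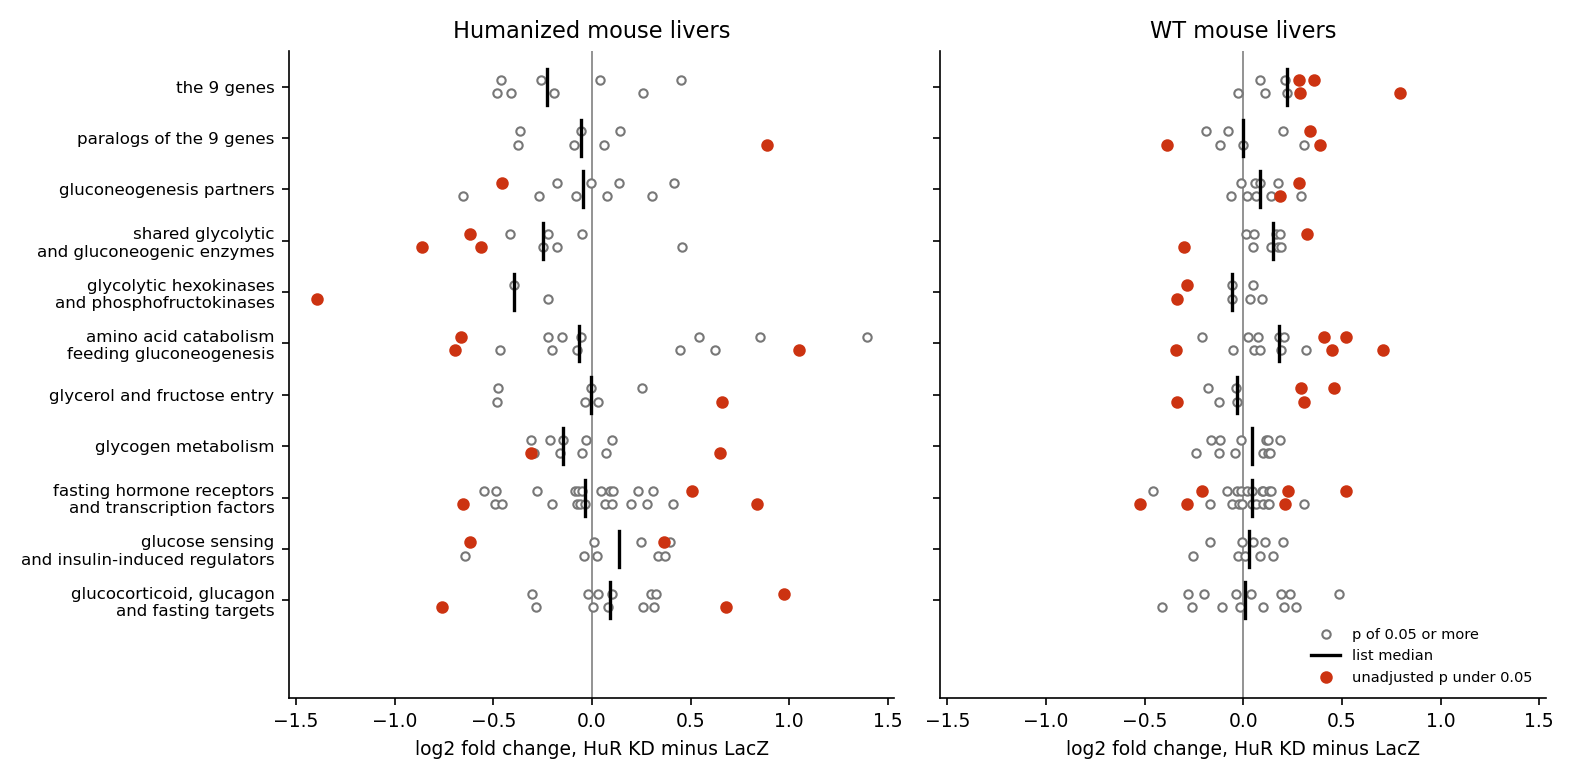
Log2 fold change, HuR KD minus LacZ, of each tested gene of 11 lists, in humanized livers on the left and WT livers on the right. Filled points passed an unadjusted p of 0.05, open points did not, and black bars are list medians. For the 9 genes the median is 0.22 in WT and, over 8 of them, -0.23 in humanized livers.

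The genes whose levels followed most closely those of the gene with the smallest p in each set were found by the distance between log2(TPM + 1) profiles scaled to mean 0 and SD 1, where 0 is an identical profile. For PCK1 over 8 humanized livers they were SAT1 (distance 0.578), SLC23A2 (0.826) and IRS1 (0.884), out of 3813 genes with a mean of at least 10 TPM and a median distance of 3.85. Without the 2 deepest libraries they were HES1 (0.335), AC010343.1 (0.519) and SAT1 (0.695), out of 3850 genes and a median distance of 3.07, so SAT1 alone was found both times. For G6pc over 12 WT livers they were Ddx1 (0.878), Ctnna1 (1.09) and Clint1 (1.14), out of 6827 genes and a median distance of 4.45.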

How the data were processed

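Total RNA of 20 livers was sequenced from strand-specific libraries. The authors trimmed the reads, aligned them with HISAT2 to mouse (GENCODE M23, mm10) or, for humanized mice, to a combined human and mouse index, counted them with featureCounts and deposited TPM, in which every library adds up to 1000000. Here log2(TPM + 1) was fitted with limma 3.58.1 in R 4.3.3 (lmFit, eBayes with trend) for genes with a mean of at least 1 TPM, each set apart. Calls are at an unadjusted p of 0.05, with Benjamini-Hochberg adjusted p over all genes beside it. Each library is from 1 liver, and p-values measure the spread between livers. The paper gives as a limit that few donors supplied the hepatocytes of its humanized mice. Donors were not told apart here, so spread between donors was not measured. Fold changes on this scale understate those of low genes. Single genes were also compared by two-sided exact permutation, with smallest p of 0.0286 for 4 against 4 and 0.00216 for 6 against 6 livers. Whole reads were recovered from the TPM steps, within 0.02 reads, for all 18702 human and 25110 mouse genes above 0 in at least 4 libraries. Both steps were tested on simulated data. No pair of libraries was identical.

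The 9 genes, lists, tests and alternatives were chosen with earlier results of these data known. Named are the 9 genes, ELAVL1, their paralogs, the 2 genes with the smallest p under 0.05 of each other list and set, the 3 genes nearest to the member with the smallest p, and the marker lists. Mouse gene spans are from GENCODE M21, which has the same build as the files. Human gene coordinates and sequences were not used here. Alternatives were another pseudocount, filters, scalings, variance models, voom, a replicate block and leaving out each liver. Some genes that the naming rule selects are not reported here.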

Additional observations from a re-analysis of the deposited data

Results flagged for a closer look

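Each of the 9 genes and HuR was checked in each group of each set, 40 groups of livers in all. In 8 of them the gap of 1 liver to its neighbour exceeded the critical value of Dixon's test. Independent groups with normal values would give about 1 in 20, or 2 of 40. These groups share livers, so the 8 cannot be set against that number. Of the 8, 5 belong to the 2 deepest humanized libraries. In HuR KD 4 they were G6PC at 892 TPM (192 to 248 in the other HuR KD livers), TAT at 531 TPM (80.7 to 90.8) and PPARGC1A at 25.7 TPM (1.43 to 2.01). In LacZ 2 they were TAT at 712 TPM (76.2 to 152 in the other LacZ livers) and PPARGC1A at 33.0 TPM (2.27 to 3.51). PKLR was at 0.0812 TPM in humanized LacZ 1 and listed at 0 in the others, and a lone value above 0 is always flagged. In WT mouse livers, Fbp1 was at 3550 TPM in HuR KD 6 (2117 to 2559 in the other HuR KD livers), and Gckr was at 83.0 TPM in HuR KD 3 (119 to 136). What sets these libraries apart was not tested.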

How the results depend on the processing

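The direction of Pck1, G6pc, Fbp1, Tat, Gckr, Pklr and Pfkfb1 in WT and of PCK1, FBP1, GCKR and SLC2A2 in humanized mouse livers held under every alternative run, and HuR stayed called lower in both sets. Over all single genes named in the text, 1412 of 1520 values under an alternative kept their direction and side of the threshold, 50 lost and 17 gained a call, and 41 changed sign. Depth was low for PPARGC1A, which rested on 32 to 141 reads in 6 humanized libraries. The values without the 2 deepest or 2 shallowest libraries and with the deepest libraries as a term were chosen after seeing the data, and the cause of the changes below was not tested.

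Counts of adjusted calls moved most. Over all genes the humanized mouse livers had 27, and 1 with no filter, 60 at a mean of at least 5 TPM (931 genes at an unadjusted p against 1461), 71 with median-of-ratios factors, 56 with quantile normalization, 85 over protein-coding nuclear genes, 0 without the trend, 88 with array weights, 63 with voom, 172 without the 2 deepest libraries and 127 with these as a term. The WT mouse livers had 134, and in the same order 60, 221, 228, 272, 223, 54, 1717 (4205 at an unadjusted p against 2418) and 530, and 762 without the 2 shallowest libraries. For the 9 genes, 1 was called in humanized mouse livers without the 2 deepest libraries (GCKR) and 1 with these as a term (PPARGC1A). After adjustment 2 were called in WT mouse livers with array weights (G6pc and Fbp1) and 1 without the 2 shallowest (G6pc). Of all genes 11.5% were called in humanized mouse livers, 15.7% without the 2 deepest libraries and 15.1% with the term. The listed pathway genes called were 20, 32 and 31 in the same order. After adjustment they were 0, and 1 with median-of-ratios, quantile normalization, array weights and voom, 2 over protein-coding nuclear genes, 5 without the deepest and 3 with the term. In WT mouse livers they were 1 after adjustment, and 17 with array weights, 3 with voom and 5 without the shallowest. The effect differed between sets for 1 gene, where 19.7% of all pairs were called, and for 0 with the 3 other scalings. It differed for 2 with array weights and for 2 without the 2 deepest humanized libraries. In the last fit 2 passed after adjustment, as 11.8% of all pairs did. The unadjusted shares of pairs in these other fits are not given here.

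Leaving out each liver in turn gave 0 to 172 adjusted calls over all genes in humanized and 30 to 371 in WT mouse livers. At an unadjusted p of 0.05 these fits called 1098 to 1958 genes in humanized and 1911 to 2856 in WT mouse livers. Of the 9 genes, 0 to 1 were called in humanized and 0 to 1 after adjustment in WT mouse livers. Of the listed genes, 0 to 2 and 0 to 3 passed after adjustment in humanized and WT mouse livers. The effect differed between sets for 0 to 3 genes, and for 0 to 1 after adjustment. For these fits the share of all pairs is not given here. Log2 fold changes that changed sign ran for G6PC from -0.05 to 0.89, TAT from -1.12 to 0.18, PPARGC1A from -1.31 to 0.31, PFKFB1 from -0.13 to 0.27, PPARGC1B from -0.14 to 0.01, PFKFB2 from -0.29 to 0.034, PFKFB3 from -0.40 to 0.42, Ppargc1a from -0.019 to 0.21, Slc2a2 from -0.089 to 0.01, Pck2 from -0.12 to 0.02 and Slc2a1 from -0.065 to 0.052. Differences between sets that did so ran for G6PC from -0.84 to 0.10, FBP1 from -0.32 to 0.14, PPARGC1A from -1.40 to 0.22 and PFKFB1 from -0.24 to 0.16. Signs also changed for PPARGC1B (0.0045 over protein-coding nuclear genes), PFKFB2 (0.0091 with array weights, 0.023 without the 2 deepest), PFKFB3 (-0.047 without the 2 deepest), Slc2a1 (0.0068 over protein-coding nuclear genes, 0.027 with array weights, 0.035 with voom, 0.031 without the 2 shallowest), Pck2 (0.013 with voom, 0.011 without the 2 shallowest) and the difference between sets of PFKFB1 (0.015 with median-of-ratios, 0.016 with quantile normalization, 0.0070 over protein-coding nuclear genes).

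The replicate numbers of the labels gave no clear sign that the livers were paired. The correlation of same-numbered livers' deviations ran from -0.25 to 0.14 in humanized and from -0.14 to 0.21 in WT mouse livers. With the replicate number as a block, 0 and 17 genes passed after adjustment in humanized and WT mouse livers. Of the listed WT genes 0 passed after adjustment. At the unadjusted threshold, 4 of the 9 genes stayed called in WT and 0 were called in humanized mouse livers. The share of all genes called at that threshold in these fits is not given here, so the 4 cannot be set against it.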
